A study of Homo sapiens with 18 samples.

Results

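RUNX1 knockout clone 1 (RUNX1 KO1) was compared with wild-type (WT) MCF10A cells by RNA sequencing of 4 libraries each. All genes that the deposited table of this comparison lists were taken, which gave 18517 genes of the 19401 listed in any of the 3 knockout comparisons used here. MCF10A is a non-transformed human mammary epithelial line. RUNX1 KO1 is 1 clone that was grown from a single cell after CRISPR-Cas9 targeting of RUNX1, and the WT group is untargeted MCF10A sequenced with it. Both groups were untreated and grew in the same medium with horse serum, insulin, EGF, hydrocortisone and cholera toxin. With 1 clone, the loss of RUNX1 cannot be told apart from other traits of that clone, and nothing in the labels says that the 4 libraries of a group came from separate cultures, so the p-values measure the spread between these libraries only. A 2nd clone (RUNX1 KO2, 4 libraries), which was set against the same WT group, and a CBFB knockout clone (CBFB KO, 3 libraries), which had WT libraries of its own, are given only for reference.

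RUNX1 is a DNA-binding transcription factor of the Runt family. It binds DNA together with CBFB, a partner subunit without DNA contacts of its own that raises its affinity, and it can activate or repress a gene depending on the cofactors it recruits. In blood RUNX1 is needed for the formation of stem cells, and in the mammary epithelium RUNX1 and CBFB are recurrently mutated in breast tumors.

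The oligos listed for the RUNX1 targeting constructs hold the guide sequences below, shown because they define the lesion. They are printed 5′ to 3′ without the cloning overhang, with the 10 bases nearest the PAM side in capitals. Which of them gave clone 1 was not given in the sources used here, and their position in the genome was not determined.

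CRISPR67: gatttcttttTAGGTTGCAG

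CRISPR69: ttacaatgagGATTCTCTCT

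The table gives for each gene a mean normalized count over the 8 libraries, a log2 fold change of KO1 over WT with its standard error (SE) and the adjusted p, but no value per library. The level in each group is therefore given as the normalized count that the mean and the fold change imply, which is approximate because the fold change may have been shrunk toward 0. Genes with reads in only 1 library recurred at 8 mean values, which correspond to relative depths of 0.921 to 1.10, and the means summed to 18050386 normalized counts. The median SE was 0.105 on the log2 scale for genes with a mean of at least 100 and 0.296 for tested genes with a mean under 10. Fold changes below are log2 values ± SE, a gene was called when the Benjamini-Hochberg adjusted p of the DESeq2 Wald test was under 0.05 with at least a 2-fold change, and "passed the test" means the adjusted p alone.

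RUNX1 transcripts were not lower in the knockout. RUNX1 had a mean of 922, with implied levels of 751 in WT and 1094 in KO1 and a fold change of 0.54 ± 0.09 (adjusted p = 1.5e-08, DESeq2), so the RNA level did not check the label, and lesions made by CRISPR-Cas9 can leave the transcript in place. The study did check its clones otherwise, with genotyping by PCR and western blotting and an immunoblot of the RUNX1 deletion. Its text does not say which clone that immunoblot shows. The RUNX1 fold change was 0.46 ± 0.13 in the 2nd clone. The related factor RUNX2 was at a mean of 30.8 and changed by 0.66 ± 0.23 (adjusted p = 0.013, DESeq2), RUNX3 was not listed, and CBFB was at -0.12 ± 0.14 (adjusted p = 0.53, DESeq2). Of the 10 tested genes of the complex and its corepressors, 3 passed the test as higher and 3 as lower, among them TLE3 at -0.62 ± 0.15, and none was called.

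The epithelial label was checked against its defining markers. The basal markers KRT5, KRT14, KRT17, TP63 and ITGB4 had means of 101688, 9515, 47912, 953 and 14658, and the luminal keratins KRT8, KRT18 and KRT19 had means of 8895, 13778 and 1.99, while KRT19 was nearly absent and GATA3 had a mean of 258. Of the 24 markers of immune, endothelial, fibroblast, adipose and milk-secreting cells, 10 were tested. The leukocyte marker PTPRC was not listed, the T cell marker CD3E, the endothelial marker PECAM1 and the adipocyte marker ADIPOQ each had a mean of 0.114, and the endothelial markers CDH5 and VWF had means of 0.395 and 0.606. The macrophage marker CD68 had a mean of 183 and CD14 of 128, the fibroblast collagen COL1A1 was called higher (1.75 ± 0.12, mean 305), and decorin (DCN), at a mean of 6.78, was called lower (-1.80 ± 0.31). The part of cell makeup in the other results was not tested.

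Of the 16394 tested genes, 809 (4.93%) were called, 551 (3.36%) higher and 258 (1.57%) lower in RUNX1 KO1. By the adjusted p alone, 3224 genes (19.7%) were higher and 3257 (19.9%) lower, so the directions were balanced until the 2-fold threshold was applied. The direction depended on the level of expression. Of the 3870 genes with a mean of at least 1000, 1373 passed the test as lower and 773 as higher, but 51 were called higher and 16 lower. The called share was 4.19% for means under 10, 11.9% for means of 10 to 100, 4.06% for 100 to 1000 and 1.73% above that. Of the called genes, 36 changed by at least 3 on the log2 scale, of which 17 were higher, and NIBAN1, BEX3 and ROS1 exceeded 5.

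**Figure D1:**
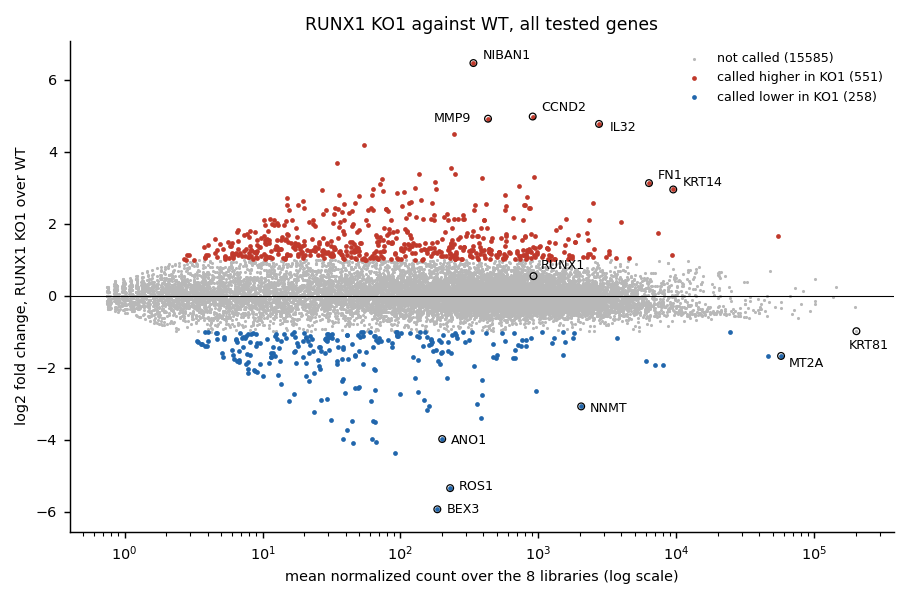
Log2 fold change of RUNX1 KO1 over WT (y axis) against the mean normalized count over the 8 libraries (x axis, log scale), with 1 point for each of the 16394 tested genes. The 551 genes called higher and 258 called lower spread over all levels, RUNX1 lies among the uncalled genes, and the abundant genes above a mean of 10000 lie mostly just below 0, with the circled KRT81 and MT2A at -0.99 and -1.68.

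The largest rise was that of NIBAN1 (listed as FAM129A), a stress-induced regulator of translation and survival, from an implied normalized count of 7.59 in WT to 669 in KO1 (6.46 ± 0.24, adjusted p = 3.4e-162, DESeq2). The D-type cyclin CCND2, which drives entry into the cell cycle, rose from 56.0 to 1765 (4.98 ± 0.12). Both genes were low in WT cells, and both were also higher in the 2nd clone (5.50 and 5.19) and in CBFB KO (7.08 and 7.58). The gelatinase MMP9 rose from 27.7 to 836 (4.92 ± 0.18) and the cytokine IL32 from 195 to 5316 (4.77 ± 0.15), which made IL32 the most abundant of the genes that rose by more than 4. GSDMA, a pore-forming gasdermin of the epidermis, rose by 4.50 ± 0.17 from an implied 20.7. The small heat shock protein CRYAB (3.55 ± 0.15), the glutamyltransferase GGT6 (3.38 ± 0.17), the actin-associated SYNPO (3.26 ± 0.15), the epithelial tyrosine kinase PTK6 (3.17 ± 0.15), the protease inhibitor A2ML1 (3.04 ± 0.11) and the axonal transport adaptor FEZ1 (2.96 ± 0.15) followed, together with IL1A, IL1B, FN1 and TNFSF15, which are described with their families. All 15 of these largest rises, taken from called genes with means from 100 up, had adjusted p-values of 2.1e-66 or below (DESeq2).

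The largest fall was that of BEX3, a small adaptor of the p75 neurotrophin receptor, from an implied 364 in WT to 5.95 in KO1 (-5.94 ± 0.25, adjusted p = 1.9e-117, DESeq2). The receptor tyrosine kinase ROS1 fell from 448 (-5.35 ± 0.23), and the calcium-activated chloride channel ANO1 from 378 to 23.9 (-3.98 ± 0.18). All 3 went from implied counts above 100 to fewer than 25. The estrogen sulfotransferase SULT1E1 (-3.19 ± 0.17), the nicotinamide methyltransferase NNMT (-3.08 ± 0.12, from 3656 to 433), the exchange factor MCF2 (-3.07 ± 0.15), the formin FHOD3 (-3.02 ± 0.14), the lipase family member PNLIPRP3 (-2.77 ± 0.12), the collagen prolyl hydroxylase P3H2 (-2.64 ± 0.08), the thioredoxin inhibitor TXNIP (-2.35 ± 0.10), the Polycomb protein CBX6 (-2.29 ± 0.21) and the surface antigen PSCA (-2.28 ± 0.13) were also among the 15 largest falls, with SCNN1G, SAA1 and ITGB2 described below. The promoter of BEX3 is shown because it carried the largest fall and held the core letters of the RUNX motif. The 250 bases before its start site in RefSeq on GRCh38.p14, chrX:103376073-103376322 on the + strand, read as follows, with the match to TGTGGT or TGCGGT on either strand in capitals.

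BEX3: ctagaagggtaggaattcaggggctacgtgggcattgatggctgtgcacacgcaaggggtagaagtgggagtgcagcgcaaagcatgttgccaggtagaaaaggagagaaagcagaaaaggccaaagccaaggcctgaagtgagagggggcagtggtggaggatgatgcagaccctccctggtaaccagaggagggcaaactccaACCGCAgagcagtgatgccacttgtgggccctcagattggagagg

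The match began 45 bases before the start site. Of the 12560 tested genes with such a sequence, 15.3% held at least 1 match in the same window, so it is a description of these letters and not a binding site. The windows of NIBAN1, ROS1, NOTCH3 and IL32 held none.

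**Figure D2:**
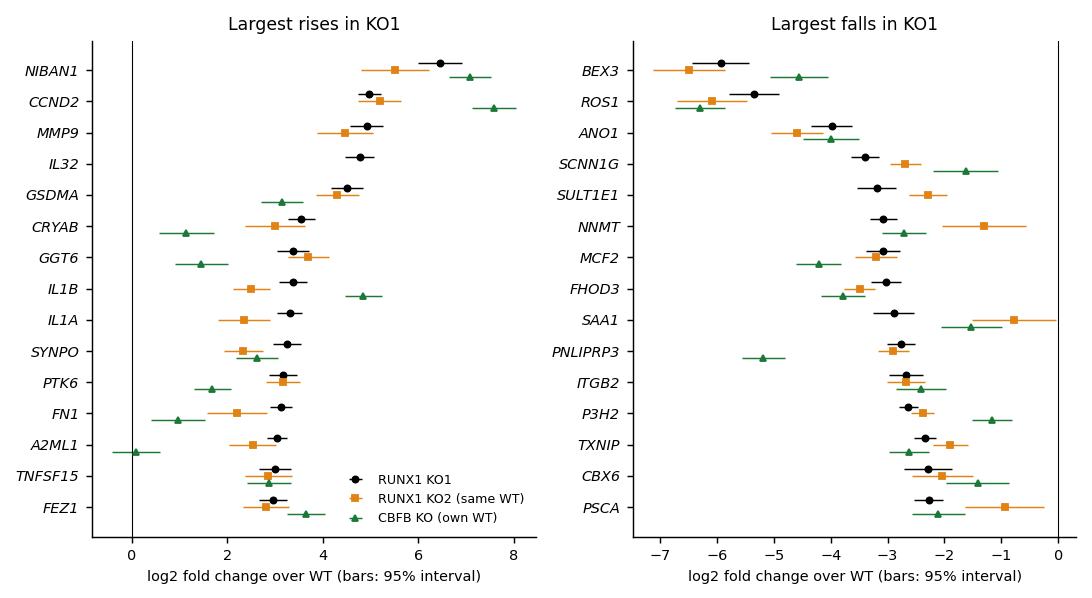
Log2 fold change over WT with 95% intervals (x axis) for the 15 largest rises (left) and 15 largest falls (right) in RUNX1 KO1 among called genes with a mean of at least 100, with the values of RUNX1 KO2 and CBFB KO beside them. Points of RUNX1 KO1 and KO2 share their WT libraries. IL32 has a point for KO1 only because the other comparisons did not list it, and A2ML1 lies at 0.09 in CBFB KO against 3.04 in KO1.

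Several developmental regulators fell in the same range at lower means, and they were singled out after their values were seen. EYA2, a transcriptional coactivator of homeobox factors, fell from an implied 175 to 8.44 (-4.38 ± 0.24), the zinc finger factor WT1 from 81.2 to 7.23 (-3.49 ± 0.27) and the homeobox factor DLX3 from 57.3 to 5.25 (-3.45 ± 0.28). The scavenger receptor SCARF2 (-4.10 ± 0.28) and the phosphohydrolase NUDT11 (-3.99 ± 0.29) fell by similar amounts. The values of EYA2, WT1, SCARF2 and NUDT11 were -4.88, -4.13, -4.25 and -4.46 in the 2nd clone. In CBFB KO they were 0.18, 0.21, 0.49 and -0.30, none past the test there, and the difference between KO1 and CBFB KO passed for each (for EYA2 -4.55 ± 0.34, adjusted p = 2.5e-36, normal test). On the side of the rises, ZNF750, a factor of terminal epidermal differentiation (3.23 ± 0.22), the kinase ALPK2 (4.19 ± 0.27) and the dendritic protein DDN (3.09 ± 0.21) exceeded 3 at means under 100.

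Among abundant transcripts the changes were smaller in size. KRT14 and FN1, given below, were among the most abundant genes called higher, and so were the tubulin TUBB3 (1.12 ± 0.10), the adhesion molecule MPZL2 (2.03 ± 0.10), ARHGAP23 (1.05 ± 0.08), the polyamine acetyltransferase SAT1 (1.23 ± 0.10) and the fibrillin FBN2 (1.17 ± 0.15). The most abundant falls were those of the metallothioneins and of the hair keratin KRT83 (-1.02 ± 0.13, mean 24586), the prostaglandin E synthase PTGES (from 12662 to 3325, -1.93 ± 0.10), the mTORC1 inhibitor DDIT4 (from 9419 to 2685, -1.81 ± 0.06), the lipoprotein lipase inhibitor ANGPTL4 (-1.18 ± 0.11), the retrotransposon-derived PEG10 (-1.03 ± 0.12) and SYT8 (-1.17 ± 0.09).

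The metallothioneins, small cysteine-rich proteins that bind zinc and copper, were grouped after their values were seen. Of the 8 tested genes, 6 were called lower, with MT2A going from an implied 87682 to 27439 (-1.68 ± 0.11), MT1A from 70141 to 22085 (-1.67 ± 0.12), and MT1E (-1.92 ± 0.10), MT1L (-1.96 ± 0.14), MT1M (-1.90 ± 0.14) and MT1X (-1.38 ± 0.13) alongside. MT1G was at -0.71 ± 0.31 (adjusted p = 0.052, DESeq2) and MT1H at a mean of 0.749. These genes are near-identical and can share reads, so the values of single members are uncertain, and the background of genes called lower was 1.57%. In the 2nd clone none of them passed the test (MT2A -0.47 ± 0.39, MT1E -0.55 ± 0.38), while in CBFB KO the values were -1.09 ± 0.12 and -1.35 ± 0.09. Because 6 of these genes fell, the 250 bases before the start sites of MT2A, chr16:56608334-56608583 on the + strand, and MT1X, chr16:56682220-56682469 on the + strand, are shown from RefSeq on GRCh38.p14, with matches to the core of the metal-response element (TGCACNC or TGCGCNC, either strand) in capitals.

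MT2A: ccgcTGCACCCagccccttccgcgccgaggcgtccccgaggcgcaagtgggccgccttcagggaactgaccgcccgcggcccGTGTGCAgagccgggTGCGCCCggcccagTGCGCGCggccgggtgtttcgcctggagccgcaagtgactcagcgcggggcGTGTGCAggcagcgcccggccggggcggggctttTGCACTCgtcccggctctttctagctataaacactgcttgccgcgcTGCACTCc

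MT1X: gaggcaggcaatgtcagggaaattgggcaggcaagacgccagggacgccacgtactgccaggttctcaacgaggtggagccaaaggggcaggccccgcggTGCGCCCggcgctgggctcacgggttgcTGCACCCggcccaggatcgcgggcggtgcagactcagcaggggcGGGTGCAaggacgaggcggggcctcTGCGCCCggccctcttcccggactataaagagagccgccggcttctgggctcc

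MT2A held 7 matches and MT1X 4, where 31.8% of the 12560 tested genes with a sequence held at least 1 and 2.2% held 3 or more in windows of the same length.

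The NOTCH pathway passes signals between neighbouring cells through membrane receptors and ligands. Of its 26 tested genes, 6 were called higher and 1 lower, with a median of 0.18, where 3.36% of all tested genes were called higher and 1.57% lower with a median of -0.0017. The receptor NOTCH3 rose from an implied 236 to 1343 (2.51 ± 0.13, adjusted p = 1.8e-81, DESeq2), a 5.70-fold change. The receptor NOTCH4 was also called higher (1.23 ± 0.30, mean 11.5), NOTCH1 passed the test at 0.44 ± 0.14 and NOTCH2 did not (0.19 ± 0.16). Of the ligands, JAG1 was called higher (1.03 ± 0.12) and JAG2 was at -0.04 ± 0.09. The Fringe enzyme MFNG (1.19 ± 0.25), the target HES2 (from 845 to 2256, 1.42 ± 0.07) and the regulator DTX1 (1.22 ± 0.24) were called higher, whereas DTX3 was called lower (-1.71 ± 0.30). Of the 14 tested targets and regulators 5 passed the test as higher, 1 as lower and 8 did not pass. The targets HES1 (0.04 ± 0.09), HEY1 (0.11 ± 0.29) and NRARP (0.29 ± 0.15) did not pass, while HES4 (0.61 ± 0.14) and HEY2 (0.89 ± 0.31) passed as higher.

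Most genes of cell division were lower by small amounts. Of the 25 tested mitosis genes, 22 passed the test as lower, none as higher and none was called, with a median of -0.46, and of the 28 DNA replication genes 26 passed as lower and none as higher (median -0.38), where 19.9% of all tested genes passed as lower. With the trend on transcript length and GC content removed, 24 and 25 passed as lower. Most genes of both lists had means of at least 1000, a level at which 1373 of the 3870 tested genes passed as lower. The anaphase activator CDC20 (-0.78 ± 0.07), TOP2A (-0.46 ± 0.09) and the helicase subunit MCM7 (-0.62 ± 0.08) passed the test, while the proliferation marker MKI67 (-0.22 ± 0.24, adjusted p = 0.52, DESeq2) and RRM2 (-0.24 ± 0.12, adjusted p = 0.11, DESeq2) did not. Among the 19 cyclins, CDKs and inhibitors, CCND2 was the only one called higher and the inhibitor CDKN2C the only one called lower (-1.29 ± 0.13). The D-type cyclin CCND1 was at -0.07 ± 0.10 (adjusted p = 0.64, DESeq2), CDK4 at -0.72 ± 0.10, CCNB1 at -0.63 ± 0.08 and the inhibitor CDKN1A at 0.68 ± 0.07. At an implied count of 1765 in KO1, CCND2 remained below the mean of CCND1 (5119), a comparison of counts that takes no account of transcript length.

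Ribosomal protein genes were lower with few exceptions. Of the 82 tested genes of the cytosolic ribosome, 80 passed the test as lower, none as higher and none was called, with values from -0.63 to -0.09 and a median of -0.48. Over all tested genes 19.9% passed as lower, and of the 3870 with a mean of at least 1000, 1373 did. RPS2 (-0.58 ± 0.10), RPLP0 (-0.47 ± 0.10), RPL4 (-0.43 ± 0.10) and RPL8 (-0.38 ± 0.11) were the most abundant of the ribosomal protein genes. In the 2nd clone 45 of these genes were tested with a median of 0.16 and in CBFB KO 82 with -0.04, and the KO1 minus CBFB KO difference passed the test for 50 of 82, all of them below 0, where 9.84% of all genes passed. For RPS2 the difference was -0.55 ± 0.13 (adjusted p = 0.0015, normal test). The genes are short, and once their dependence on transcript length and base composition was removed, 55 of them passed as lower with a median of -0.31. Some listed genes overlap, such as RPS10 and RPS10-NUDT3 with means of 14578 and 14952, and these share reads.

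Genes of the respiratory chain, which makes ATP in mitochondria, had the same direction. Of its 74 tested subunit genes, 54 passed as lower and none as higher (median -0.35), with ATP5F1B at -0.40 ± 0.08 and ATP5F1A at -0.33 ± 0.08, and 30 passed as lower once the length and GC trend was removed. Over all tested genes 19.7% passed as higher and 19.9% as lower, and of the 3870 with a mean of at least 1000, 1373 passed as lower. Of the 20 glycolysis genes 11 passed as lower and none as higher, including GAPDH (-0.42 ± 0.08), ENO1 (-0.34 ± 0.08) and PKM (-0.31 ± 0.09). Among the 17 hypoxia genes NDRG1 was called higher (1.23 ± 0.08) and DDIT4 and CA9 (-1.04 ± 0.31, mean 8.52) lower, and the glucose transporter SLC2A3 was called lower (-1.05 ± 0.31) at a mean of 4.61. Translation initiation factors (22 lower and 2 higher of 41 tested) and RNA-binding proteins of the hnRNP and SR families (22 lower and 4 higher of 38) included EIF5A (-0.37 ± 0.09), HNRNPA1 (-0.46 ± 0.09) and HNRNPK (-0.23 ± 0.05), and none was called. Of the 36 genes of the unfolded protein and amino acid response, 22 passed as lower and 4 as higher, and the secreted STC2 (-1.23 ± 0.09) and the factor CEBPB (-1.01 ± 0.10) were called lower.

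Epidermal differentiation turns basal keratinocytes into the cornified barrier of the skin. Of its 37 tested genes 21 passed the test as higher and 2 as lower, 12 were called higher, against 3.36% of all genes, and 1 lower, with a median of 0.54 against -0.0017 over all tested genes. Involucrin (IVL), a scaffold of the cornified envelope, rose from an implied 269.5 to 1444 (2.42 ± 0.11), suprabasin (SBSN) from 33.1 to 197 (2.57 ± 0.19), the cysteine protease inhibitor CST6 from 271 to 1477 (2.44 ± 0.12) and SPRR1A from 17.1 to 59.8 (1.81 ± 0.22). The calmodulin-like CALML3 (2.10 ± 0.29) and CALML5 (1.97 ± 0.30) rose from implied counts of 6.17 and 5.82. S100A9, a calcium-binding alarmin, rose by 1.64 ± 0.11, whereas the abundant S100A2 was at 0.24 ± 0.10, S100A6 at -0.13 ± 0.10 and S100A14 at -0.05 ± 0.11. Of the 10 tested kallikrein peptidases, serine proteases secreted by many epithelia, KLK7 was called lower (-1.28 ± 0.15) and KLK5 passed the test at 0.98 ± 0.09.

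Keratins, the intermediate filament proteins of epithelia, moved in both directions. KRT14, the basal keratin, rose from an implied 2181 to 16848 (2.95 ± 0.10, adjusted p = 4.5e-174, DESeq2) and KRT13, a keratin of stratified mucosa, from 47.2 to 170.1 (1.85 ± 0.16), while KRT5, the usual partner of KRT14, was at -0.24 ± 0.09 (adjusted p = 0.019, DESeq2). Of the 24 tested keratins 8 passed the test as higher and 7 as lower, beside 19.7% and 19.9% of all tested genes. The keratins of stressed epidermis KRT6A (0.47 ± 0.07), KRT16 (0.99 ± 0.13) and KRT17 (0.69 ± 0.11) passed as higher without being called. The hair keratins KRT81 (-0.99 ± 0.09, mean 202522), KRT83 (-1.02 ± 0.13) and KRT86 (-0.93 ± 0.11) were all lower, and since these genes are near-identical their values are uncertain. Of the 14 tested factors of the mammary lineages only the basal factor TP63 was called (1.08 ± 0.09), with KLF5 at -0.54 ± 0.11, CD24 at 0.73 ± 0.06 and GATA3 at -0.26 ± 0.11.

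**Figure D3:**
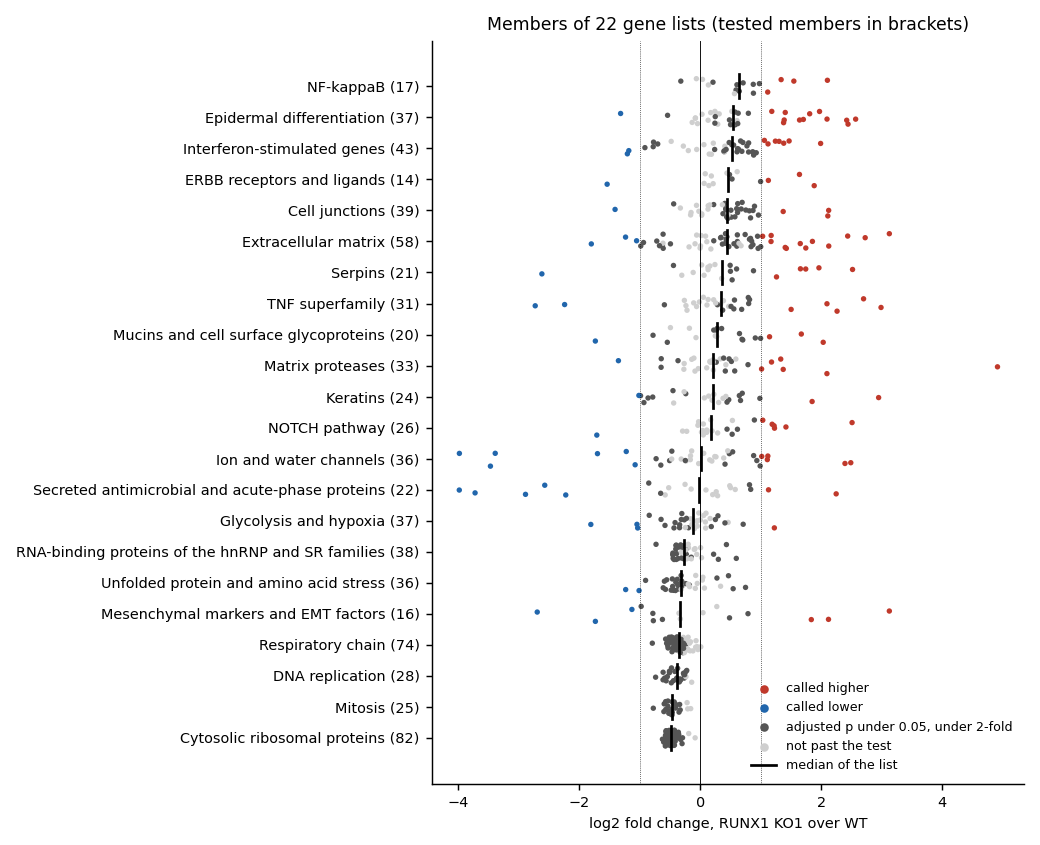
Log2 fold change of RUNX1 KO1 over WT (x axis) for each tested member of 22 gene lists (rows, number of tested members in brackets), with the list median as a black bar and dotted lines at a 2-fold change. Medians range from 0.65 for the NF-kappaB list to -0.48 for ribosomal proteins, whose points form a narrow cluster, whereas the channel and antimicrobial lists spread to both sides.

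The extracellular matrix anchors epithelial cells and transmits signals to them. Of 58 tested matrix genes 12 were called higher and 3 lower (median 0.43), where 3.36% of all tested genes were called higher and 1.57% lower, and of the 23 collagens 17 passed the test as higher and 4 as lower. Fibronectin (FN1) rose from an implied 1304 to 11388 (3.13 ± 0.12, adjusted p = 2.2e-151, DESeq2) and tenascin C (TNC) by 2.73 ± 0.10. COL8A2 (2.44 ± 0.29), COL5A3 (2.12 ± 0.17) and LAMA2 (1.85 ± 0.17) were called higher from lower levels, and the laminin chains LAMA3 (0.74 ± 0.08) and LAMB3 (0.56 ± 0.10) passed as higher. Of the 24 integrins, ITGB6 (2.56 ± 0.10, from 719.5 to 4246) and ITGAV (1.54 ± 0.14), which together form a receptor for fibronectin and latent TGF-beta, and ITGA2 (1.58 ± 0.16) were called higher, while the leukocyte integrin ITGB2 (-2.68 ± 0.15) and the collagen receptor ITGA10 (-1.88 ± 0.27) were called lower.

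Genes of cell junctions were more often higher than lower, mostly by less than 2-fold. Of 39 tested members 25 passed the test as higher and 2 as lower (median 0.44), where 19.7% of all genes passed as higher. Desmosomes hold epithelial cells together, and of their 11 tested genes 8 passed as higher and none as lower, with PKP1 (2.11 ± 0.27) and DSC2 (1.37 ± 0.11) called and DSP (0.96 ± 0.15) and JUP (0.90 ± 0.07) just under the 2-fold threshold. NECTIN4 was called higher (2.12 ± 0.11) and the cadherin CDH4 lower (-1.41 ± 0.15). The mesenchymal list was mixed, with 3 members called higher and 3 lower of 16 tested, beside 3.36% and 1.57% of all tested genes. FN1, the actin-binding TAGLN (2.12 ± 0.10) and the surface protease FAP (1.84 ± 0.08) rose, whereas vimentin (VIM) fell from an implied 1036 to 311 (-1.74 ± 0.11), the factors FOXC2 (-2.70 ± 0.24) and TWIST1 (-1.13 ± 0.16) were called lower, and SNAI2 was at -0.78 ± 0.09.

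Several secreted proteases and serpins, which inhibit serine proteases, were called higher. Of 33 tested genes of matrix proteases and their inhibitors 6 were called higher and 1 lower, beside 3.36% and 1.57% of all tested genes. MMP9 led them, followed by the plasminogen activators PLAU (from an implied 890.0 to 3802, 2.09 ± 0.09) and PLAT (1.18 ± 0.08), ADAM8 (1.37 ± 0.09) and ADAMTS15 (1.33 ± 0.17). C10orf55, which overlaps PLAU and can share its reads, was at 2.17 ± 0.10. ADAMTS6 was called lower (-1.35 ± 0.24), MMP14 passed the test at 0.57 ± 0.11, the inhibitor TIMP1 was at -0.65 ± 0.11, and the inhibitor TIMP2 was called higher (1.01 ± 0.07). Of the 21 serpins 5 were called higher, among them the plasminogen activator inhibitor SERPINB2 (1.66 ± 0.15), the acute-phase SERPINA3 (2.52 ± 0.11), the complement inhibitor SERPING1 (1.96 ± 0.30, mean 12.1) and SERPINI1 (1.26 ± 0.16), while SERPINA1 was called lower (-2.62 ± 0.20).

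Interleukin-1 cytokines are released by stressed or dying epithelial cells and alert the immune system. Of the 5 tested ligands and antagonists 4 were called higher. IL1A went from an implied 172 to 1701 (3.30 ± 0.13), IL1B from 43.6 to 451 (3.37 ± 0.15), and the antagonists IL1RN (1.36 ± 0.10) and IL36RN (1.63 ± 0.29, mean 13.8) were also called higher. IL18, the most abundant member, was at -0.09 ± 0.09 (adjusted p = 0.45, DESeq2), and of the 6 tested receptors 1 passed as higher and 1 as lower, none called. The RefSeq sequence before the start site of IL1A, chr2:112784494-112784743 on the - strand on GRCh38.p14, is shown because this gene lay among the largest rises, with its match to the AP-1 letters TGAGTCA, on either strand, in capitals.

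IL1A: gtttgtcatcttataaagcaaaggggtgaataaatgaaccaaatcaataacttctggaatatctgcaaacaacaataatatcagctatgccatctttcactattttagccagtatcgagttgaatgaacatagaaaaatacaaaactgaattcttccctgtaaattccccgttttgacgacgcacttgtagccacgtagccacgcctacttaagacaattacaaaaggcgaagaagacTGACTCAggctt

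The match began 12 bases before the start site, and 3.03% of the 12560 sequences held at least 1 in the same window. Of the 22 AP-1 and immediate early genes 7 passed the test as higher, with KLF4 called (1.06 ± 0.14), KLF6 at 0.83 ± 0.07 and IER2 at 0.69 ± 0.09.

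Among the other inflammatory genes, the neutrophil attractants CXCL8 (from 74.4 to 362, 2.28 ± 0.14) and CXCL1 (2.11 ± 0.16) were the only chemokines called of 16 tested, where 3.36% of all tested genes were called higher and 1.57% lower. CXCL2 (0.81 ± 0.21) and CCL20 (0.46 ± 0.16) passed the test. Of the 31 other cytokines and receptors IL32, EBI3 (2.09 ± 0.31) and the granulocyte growth factor CSF3 (1.13 ± 0.12) were called higher. In the TNF superfamily 5 of 31 tested genes were called higher and 2 lower, with the ligand TNFSF15 rising from 28.7 to 228 (2.99 ± 0.17), LTB (2.70 ± 0.30), TNFSF10 (2.26 ± 0.26) and the receptor TNFRSF14 (2.10 ± 0.17) higher, and the ligand CD70 (-2.73 ± 0.30) and the receptor CD40 (-2.24 ± 0.28) lower. The cyclooxygenase PTGS2 rose (2.19 ± 0.17) while PTGES, which acts after it in the synthesis of prostaglandin E2, fell (-1.93 ± 0.10).

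NF-kappaB is the transcription factor that drives many of these cytokines, and its own feedback genes are used as a sign of its activity. Of 17 tested members 12 passed as higher and 1 as lower, with a median of 0.65, the 2nd highest of the 51 lists after the gasdermins (0.92). Over all tested genes 19.7% passed as higher and 19.9% as lower. The deubiquitinase TNFAIP3 rose from 151 to 649.5 (2.10 ± 0.12), and ICAM1 (1.55 ± 0.11), NFKBIZ (1.34 ± 0.20) and the subunit RELB (1.12 ± 0.12) were called higher. NFKB2 was at 0.88 ± 0.08, RELA at 0.21 ± 0.08 and NFKB1 at 0.13 ± 0.08 (adjusted p = 0.21, DESeq2). Of the 12 feedback genes 8 passed as higher and NFKBIB passed as lower (-0.32 ± 0.13). BIRC3 (0.04 ± 0.08), BCL3 (-0.06 ± 0.16) and TRAF1 (0.57 ± 0.30) did not pass. Of the 6 gasdermins GSDMA and GSDMB (1.01 ± 0.28) were called higher, GSDMC (0.94 ± 0.09) and GSDME (0.91 ± 0.09) passed the test, and GSDMD did not (0.13 ± 0.11).

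Interferon-stimulated genes encode antiviral proteins. Of 43 tested genes 27 passed as higher and 6 as lower (median 0.52), where 19.7% of all tested genes passed as higher and 19.9% as lower. SAMD9L (1.99 ± 0.23), MX1 (1.47 ± 0.20), SAMD9 (1.24 ± 0.13) and IFI44 (1.30 ± 0.30) were called higher, whereas the membrane-restriction genes IFITM1 (-1.18 ± 0.19), IFITM2 (-0.92 ± 0.09) and IFITM3 (-0.78 ± 0.11) were all lower and IFI44L was called lower (-1.21 ± 0.30, mean 10.8). Antigen presentation had 10 of 18 tested genes passing as higher, such as HLA-B (0.41 ± 0.09), and none called.

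The EGF family signals through EGFR and its ERBB relatives. Of its 10 ligands 3 were called higher and 1 lower, and none of the 4 receptors was called. Over all tested genes 3.36% were called higher and 1.57% lower. EREG (1.88 ± 0.17), HBEGF (from an implied 388 to 1211, 1.64 ± 0.10) and BTC (1.13 ± 0.24) were called higher and NRG4 lower (-1.54 ± 0.28), while AREG, the most abundant ligand, was at 0.06 ± 0.13 (adjusted p = 0.74, DESeq2), EGFR at 0.14 ± 0.17 and ERBB2 at 0.52 ± 0.08. Of the 27 other receptor tyrosine kinases FGFR3 (1.61 ± 0.10) and CSF1R (1.10 ± 0.14) were called higher, and ROS1 and AXL (-1.40 ± 0.09, from 1177 to 446) lower, with MET at 0.33 ± 0.09. In the ERK feedback list 9 of 20 genes passed the test as higher and 4 as lower, beside 19.7% and 19.9% of all tested genes. It included SPRY4 (1.36 ± 0.11) and SPRED3 (1.23 ± 0.25). Ephrin A1 (EFNA1, 1.18 ± 0.10) and the receptors EPHB2 (1.01 ± 0.09) and EPHA10 (1.16 ± 0.27) were called higher among 18 Eph genes.

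The TGF-beta and BMP list had 2 genes called higher and 3 lower of 44, beside 3.36% and 1.57% of all tested genes. In it follistatin (FST), which binds activins, rose from 145 to 998 (2.78 ± 0.11), and the activin subunit INHBA rose with it (1.79 ± 0.18). TGFB2 (-1.30 ± 0.31), the BMP antagonist NOG (-1.14 ± 0.27) and SMAD6 (-1.06 ± 0.31) were called lower at means under 25. The window before the FST start site, chr5:53480379-53480628 on the + strand in RefSeq on GRCh38.p14, is shown because FST led this list and held 1 match to TGTGGT or TGCGGT, in capitals and beginning 59 bases before the start.

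FST: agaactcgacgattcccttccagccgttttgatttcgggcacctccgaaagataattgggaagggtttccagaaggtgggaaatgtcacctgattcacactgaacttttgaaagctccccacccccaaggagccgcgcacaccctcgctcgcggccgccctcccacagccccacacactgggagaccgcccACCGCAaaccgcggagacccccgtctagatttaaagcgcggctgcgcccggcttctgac

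In the WNT list the ligands WNT9A (1.38 ± 0.14), WNT7B (1.31 ± 0.09), WNT7A (1.12 ± 0.12) and WNT4 (1.19 ± 0.31, mean 6.39) and the inhibitor NKD2 (1.12 ± 0.29, mean 2.92) were called higher, WNT5A lower (-1.27 ± 0.23), and the secreted antagonist SFRP1 passed as lower (-0.68 ± 0.07), of 40 tested. Of the 23 genes of the YAP and TEAD list 2 were called higher and 2 lower, beside 3.36% and 1.57% of all tested genes. The TEAD cofactors VGLL1 (2.19 ± 0.16) and VGLL3 (1.21 ± 0.14) were called higher, with YAP1 at 0.26 ± 0.12 (adjusted p = 0.079, DESeq2). Both members called lower were among the 14 targets, of which none was called higher, and 4 targets passed the test as higher and 4 as lower. Among 26 p53 targets 9 passed as higher and 8 as lower, beside 19.7% and 19.9% of all tested genes, with TP53I3 (1.31 ± 0.10) and TP53INP1 (1.25 ± 0.15) called. The ETS factors had no called member of 20 (4 higher and 4 lower by the test). Of the 19 tested genes known as RUNX1 targets in blood cells MPO (1.27 ± 0.22), CSF1R and MYL9 (1.24 ± 0.11) were called higher and none lower, beside 3.36% called higher over all genes, and 14 did not pass the test (list median 0.11).

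Ion and water channels set the salt and fluid transport of epithelia. The epithelial sodium channel subunits SCNN1G (from an implied 701 to 66.8, -3.39 ± 0.13) and SCNN1B (-3.47 ± 0.23) were called lower and SCNN1A passed as lower (-0.73 ± 0.06), and ANO1 and the potassium channel KCNMA1 (-1.70 ± 0.30) were also called lower. The glycerol and water channel AQP3 (2.39 ± 0.13), the heat-sensing TRPV3 (2.49 ± 0.17) and the chloride channel regulator CLCA2 (1.11 ± 0.08) were called higher, and the whole list had 5 called higher and 6 lower of 36, beside 3.36% and 1.57% of all tested genes. Among the 22 secreted defence proteins, DMBT1 (-3.99 ± 0.26), the acute-phase SAA1 (-2.89 ± 0.18) and SAA2 (-2.57 ± 0.22) and CFI (-2.23 ± 0.31) were called lower and C3 passed as lower (-0.85 ± 0.10), while the skin ribonuclease RNASE7 rose (2.25 ± 0.12). SAA1 and SAA2 are close paralogs that can share reads. Of the mucins and surface glycoproteins (3 called higher and 1 lower of 20), MUC1 fell from 1002 to 301 (-1.74 ± 0.13), and CEACAM6 (2.03 ± 0.24) and L1CAM (1.67 ± 0.08) rose.

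Of 40 tested genes of aldehyde and steroid metabolism 6 were called, beside 4.93% of all tested genes. The vitamin D hydroxylase CYP24A1 (2.27 ± 0.25) and SULT2B1 (1.23 ± 0.18) were called higher, and ALDH3B1 (-2.72 ± 0.19), CYP1B1 (-1.02 ± 0.18) and SULT1E1 were among the 4 called lower. Cholesterol synthesis had no called gene of 22, fatty acid synthesis had FADS3 (1.30 ± 0.07) of 20, and the NRF2 and glutathione list had GPX3 (1.09 ± 0.31, mean 7.82) of 35, with FTH1 at -0.48 ± 0.12. Of the 40 tested genes of the histone list H2BC21 (1.47 ± 0.17), H2BC4 (1.39 ± 0.21), H2AC6 (1.10 ± 0.17) and H2BC5 (1.08 ± 0.17) were called higher and none lower, with the caution that histone genes share near-identical sequence. The list median was -0.12, and 30 of the 40 did not pass the test. The histone H2AC19, which the list does not hold, was also called higher (1.71 ± 0.11). The NIBAN family had NIBAN1 as its called gene of 3, and in the BEX and TCEAL family on the X chromosome BEX5 (-1.12 ± 0.29, mean 12.3) was called lower beside BEX3, and the abundant TCEAL4 was at -0.10 ± 0.10.

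Protein-coding genes made up 95.7% of the called genes (529 higher and 245 lower of 14475 tested) and 88.3% of the tested genes. Of 982 tested long noncoding RNAs 12 were called higher and 8 lower, a called share of 2.04% beside 4.93% of all tested genes. Of the long noncoding RNAs, chosen after their values were seen, LINC00707 fell from an implied 994 to 352 (-1.50 ± 0.09) and the imprinted H19 from 239 to 94.6 (-1.34 ± 0.17). None of the 178 tested snoRNAs was called. No chromosome stood far from the rest. Over genes with a mean of at least 100 the chromosome medians ran from -0.08 on chromosome 19, -0.06 on 16 and -0.05 on 11 to 0.01 on 3, 0.02 on X and 0.06 on 18. The lowest medians of 25 neighbouring genes were -0.32 from MPDU1 to RPL26 on chromosome 17, -0.32 from UHRF1 to C3 on 19 and -0.31 from DIS3L to TLE3 on 15, and the highest were 0.35 from ROCK1 to TRAPPC8 on 18, 0.31 from CRABP2 to TSTD1 on 1 and 0.26 from ADTRP to SOX4 on 6.

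The table of RUNX1 KO1 held genes that the other tables used here did not list. Of its 18517 genes, 677 were not listed for CBFB KO and 769 not for RUNX1 KO2, including 181 listed for neither. Of the first group 84 were tested in KO1 and 28 called, 24 of them higher. They included MMP9, IL1A, the growth factor PDGFB (2.66 ± 0.17), TRPV3, EFR3B (2.42 ± 0.26), CXCL8, RNASE7, PTGS2, PLAU, TNFAIP3, HBEGF, INHBA and the scaffold AKAP12 (from an implied 1027 to 3459.9, 1.75 ± 0.12), and SULT1E1 led the 4 that were lower. In RUNX1 KO2, where these genes were listed, their values had the same sign, such as PDGFB at 2.35 ± 0.24, PTGS2 at 1.37 ± 0.35 and AKAP12 at 0.89 ± 0.35.

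Of the genes not listed for RUNX1 KO2, 354 had a mean of at least 100 and 170 of at least 1000, so many of them were abundant in these libraries. The KO2 comparison used the same WT group, in which KRT14 had an implied count of 2181 and IL32 of 195. Being unlisted for KO2 is thus not read as absent expression, as lack of change or as a trait of KO1 alone. Why these genes were not listed was not determined. The 769 genes carried 6.88% of the summed means and included 37 cytosolic ribosomal protein genes, S100A2 (mean 143399), S100A6 and GSTP1 (0.16 ± 0.11, mean 20574). For those with a mean of at least 100, the median longest transcript was 1452 bases against 3809 for the other genes at that level, and the median fold change was -0.30. All 23 called genes among them were higher, with KRT14, the calcium-binding TESC (from 5.00 to 64.7, 3.69 ± 0.29), LTB, the chloride channel CLIC3 (2.54 ± 0.15), the myosin light chain MYL7 (2.52 ± 0.29), CST6, the histone H2AC19 (1.71 ± 0.11), S100A9, the inflammasome adaptor PYCARD (1.27 ± 0.12), the GTPase RHOV (1.25 ± 0.12) and TYMP (1.09 ± 0.13) among them. In CBFB KO KRT14 was at 2.97 ± 0.16. TESC was listed there at -0.03 ± 0.08, but no tested difference from KO1 is given for it, so this value is not read as a lack of change. IL32 and NKD2 were the called genes listed for neither. Conversely, 686 genes listed for CBFB KO and 369 listed for RUNX1 KO2 were not in the table of KO1, and 1 and 0 of them were called there. The share of tested genes that were called was 33.3% for those not listed for CBFB KO and 5.61% for those not listed for RUNX1 KO2, beside 4.93% of all tested genes.

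**Figure D4:**
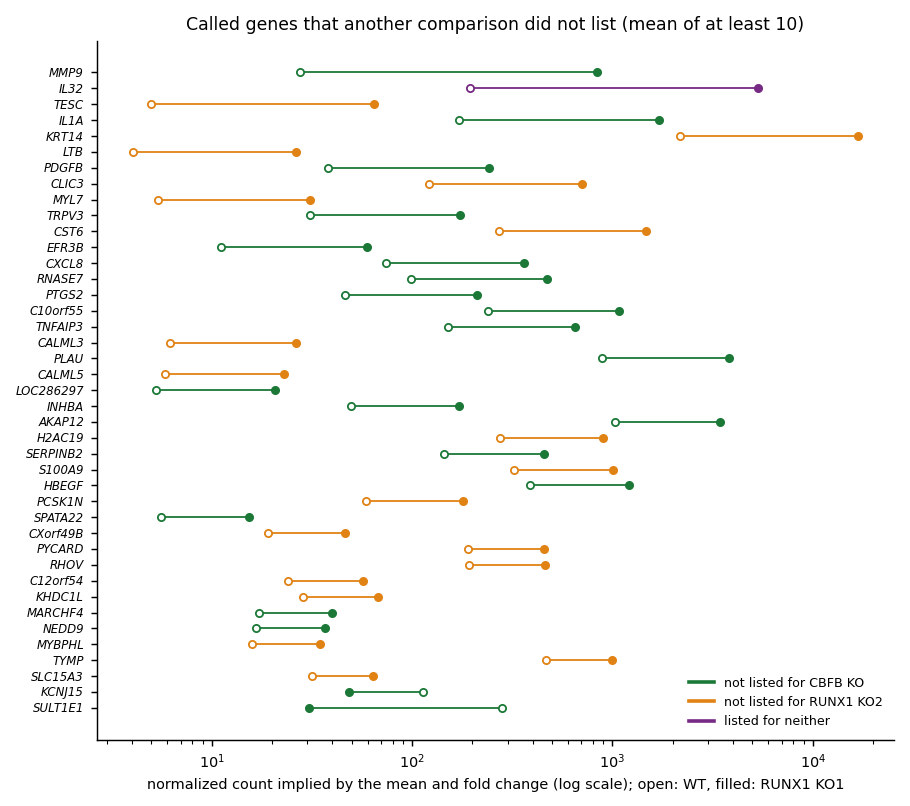
Implied normalized counts (x axis, log scale) in WT (open) and RUNX1 KO1 (filled) of the called genes with a mean of at least 10 that were not listed for CBFB KO, for RUNX1 KO2 or for either (colors), ordered by fold change. All rise except KCNJ15 and SULT1E1, and IL32 ends at 5316.

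Both RUNX1 clones were set against the same WT libraries, so their values are given side by side without a test. Of the 809 genes called in KO1, 784 were tested in KO2. There 556 were called in the same direction and 228 were not called, of which 84 still passed the test there. The share of all tested genes called in KO2 is not given here, so these counts stand without a background. For each gene named below the SE was larger in KO2 than in KO1, and the part of this lower precision in the 228 was not tested. Of the called genes with a mean of at least 100, CLCA2 (1.11 ± 0.08 in KO1 and 0.30 ± 0.25 in KO2), the phosphatase receptor PTPRZ1 (1.20 ± 0.16 and -0.04 ± 0.39), IFITM1 (-1.18 ± 0.19 and -0.07 ± 0.33) and SYT8 (-1.17 ± 0.09 and -0.28 ± 0.34) did not pass the test in KO2. At lower means CHRNA9 (2.78 ± 0.22 and 0.72 ± 0.34) and SMIM22 (-2.38 ± 0.28 and 0.19 ± 0.41) were alike in this respect. These genes were chosen for that contrast after their values were seen.

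RUNX1 KO1 and CBFB KO share no library, so the difference of their fold changes was tested with a two-sided normal test, adjusted over the 14940 genes tested in both. The difference passed for 1470 genes (9.84%). It carries both the gene that was targeted and the experiment, which cannot be told apart. The deposited fold changes may also have been shrunk toward 0, by different amounts in each comparison. The test takes no account of this, so its adjusted p-values and the count of genes that differ are approximate. Of the 714 genes called in KO1 and tested in both, 249 differed, 188 of them with the same sign and a larger size in KO1, 18 with a smaller size and 43 with the opposite sign. These genes were chosen by their size in KO1, which by itself favours a larger size there, so the split is not a result about the genes. Among all 1470 genes that differed, KO1 was above CBFB KO for 616 and below it for 854. CBFB itself was at -0.12 in KO1 and -4.88 in CBFB KO.

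The genes whose rise was larger in KO1 included A2ML1 (difference 2.95 ± 0.28, adjusted p = 1.6e-23, normal test), SBSN (2.46 ± 0.34), CRYAB (2.40 ± 0.33), SERPINA3 (2.17 ± 0.28) and FN1 (2.16 ± 0.31), where A2ML1 (0.09), SBSN (0.11) and SERPINA3 (0.35) did not pass the test in CBFB KO. The elongation factor isoform EEF1A2 rose in KO1 (1.66 ± 0.11) and fell in CBFB KO (-0.84 ± 0.28), as did the prohormone inhibitor PCSK1N (1.61 ± 0.15 and -0.88 ± 0.26). VIM went the other way (-1.74 ± 0.11 in KO1 and 0.64 ± 0.18 in CBFB KO, difference -2.37 ± 0.21, adjusted p = 1.3e-26, normal test), and so did C3 (-0.85 ± 0.10 and 0.98 ± 0.22) and IFITM3 (-0.78 ± 0.11 and 0.52 ± 0.16). CCND2 (4.98 ± 0.12 against 7.58 ± 0.23), IL1B (3.37 ± 0.15 against 4.85 ± 0.20) and PNLIPRP3 (-2.77 ± 0.12 against -5.18 ± 0.19) changed in the same direction in both and less in KO1. NOTCH3 rose in both and more in KO1 (2.51 ± 0.13 against 1.35 ± 0.24, difference 1.16 ± 0.27, adjusted p = 0.0011, normal test). For NIBAN1 (-0.62 ± 0.32, adjusted p = 0.22, normal test), KRT14 (-0.02 ± 0.19, adjusted p = 0.96), ANO1 (0.01 ± 0.31) and TNFSF15 (0.11 ± 0.29) the difference did not pass.

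**Figure D5:**
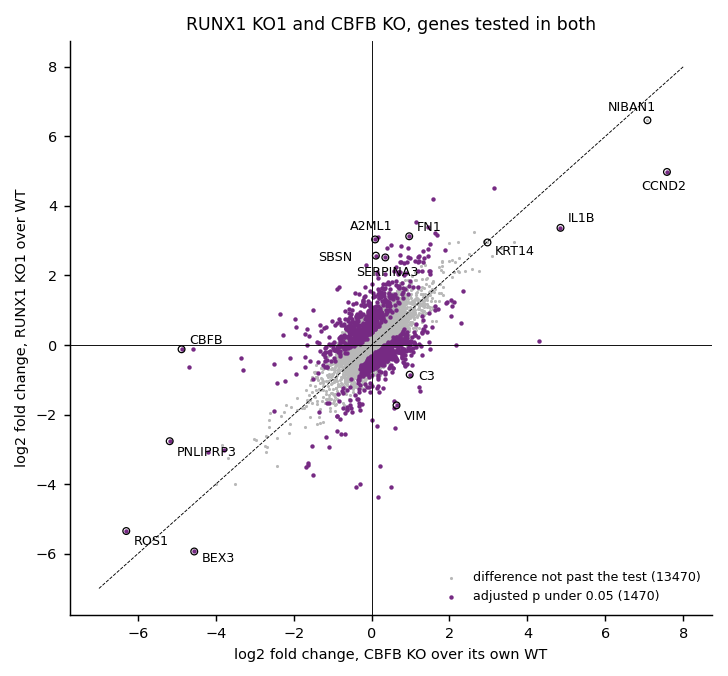
Log2 fold change in RUNX1 KO1 over its WT (y axis) against that in CBFB KO over its own WT (x axis) for the 14940 genes tested in both, with the 1470 genes whose difference passed the test in purple and the line of equal change dashed. VIM and C3 lie below 0 on the y axis and above 0 on the x axis, A2ML1 and SBSN lie near 0 on the x axis, and CBFB lies near 0 on the y axis.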

How the data were processed

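RNA of 8 samples labelled RUNX1 KO1 or WT was sequenced. The labels name an mRNA library kit, whereas the methods section has ribosomal RNA depleted instead. Per the submitters' processing notes, Trimmomatic, STAR and DESeq2 were used with hg19, and no versions were given in the sources used here. The authors deposited 1 table per comparison with the mean normalized count of each gene, which is a signal value scaled by library depth, its log2 fold change and standard error, the Wald score (the fold change over its standard error), and the p-value and adjusted p-value. These deposited columns are pooled over libraries, and no value per library was used, so no count model could be fitted. For this comparison the deposited fold changes, standard errors and p-values were read as they stand, since they are the data described.

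Genes with an adjusted p-value were counted as tested, and those with an adjusted p under 0.05 and at least a 2-fold change as called, as in the study's methods. Group levels were computed from the mean and the fold change, with 4 libraries in each group. Differences between RUNX1 KO1 and CBFB KO were tested with a two-sided normal test on the combined standard error and Benjamini-Hochberg adjustment (Python 3.11.15, scipy 1.17.1, pandas 2.3.3, numpy 2.4.6). This step was tested first on simulated fold changes without shrinkage, so the effect of shrinkage on it was not tested. The tables hold 0 columns of single libraries. IDs were matched to RefSeq for 18457 genes, and RefSeq on GRCh38.p14 served only for names, gene order and the printed promoter sequences. Current gene symbols replaced older ones.

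The genes and gene lists were chosen with earlier results of these data known. The named genes are RUNX1, RUNX2, RUNX3, CBFB and NOTCH3, the 15 largest rises and falls and the 10 highest means in each direction among called genes with a mean of at least 100, up to 6 called and 4 other abundant members of each list, up to 10 of the largest changes not listed elsewhere with a mean of at least 10, and the cell type markers. The metallothioneins, JAG1, KRT16, KRT86, TIMP2, RPS10, RPS10-NUDT3 and the genes marked so in the text were chosen after their values were seen. Other thresholds, filters on low means, centring on the median and removal of the trend on transcript length and GC content were tried. Some genes that this rule selects are not reported here.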

Additional observations from a re-analysis of the deposited data

Results flagged for a closer look

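The fold changes of RUNX1 KO1 and CBFB KO, each against its own WT libraries, differed for 1470 of 14940 genes by a two-sided normal test with adjusted p under 0.05. The genes named in the text whose difference (RUNX1 KO1 minus CBFB KO, log2 scale) passed this test with a size of at least 1 follow. The gene that was targeted and the experiment cannot be told apart in these differences, and no explanation was tested. The test takes no account of possible shrinkage of the fold changes.

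For genes past the test as higher in both, and more so in KO1, the differences were 2.61 for ALPK2, 2.40 for CRYAB, 2.16 for FN1, 1.93 for GGT6, 1.60 for ZNF750, 1.48 for PTK6 and 1.38 for LTB. Further differences in this set were 1.38 for TNFRSF14, 1.37 for CALML3, 1.36 for GSDMA, 1.36 for CLIC3, 1.36 for ITGB6, 1.20 for IVL and 1.16 for NOTCH3. Genes past it as lower in both, and more so in KO1, had differences of -1.83 for VSTM2L, -1.82 for DLX3, -1.79 for SAA2, -1.76 for SCNN1G, -1.47 for P3H2, -1.38 for BEX3, -1.36 for SAA1 and -1.17 for MUC1. For genes past the test as higher in both, and less so in KO1, the differences were -2.61 for CCND2 and -1.48 for IL1B. Genes past it as lower in both, and less so in KO1, had differences of 2.42 for PNLIPRP3, 1.20 for CYP1B1 and 1.13 for MCF2.

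For genes past the test as higher in KO1 and not past it in CBFB KO, the differences were 2.95 for A2ML1, 2.93 for DDN, 2.46 for SBSN, 2.38 for CHRNA9, 2.17 for SERPINA3, 1.97 for PKP1, 1.90 for CEACAM6, 1.67 for AQP3 and 1.48 for MPO. Further differences in this set were 1.39 for SPRR1A, 1.37 for IL36RN, 1.33 for DSC2, 1.22 for KRT13, 1.22 for EPHA10, 1.14 for WNT9A, 1.11 for MYL9, 1.11 for CSF1R and 1.06 for KLK5. For those past the test as lower in KO1 and not past it in CBFB KO, the differences were -4.59 for SCARF2, -4.55 for EYA2, -3.70 for WT1, -3.69 for NUDT11, -2.99 for SMIM22 and -2.46 for NPTX1. Further differences in this set were -1.44 for KCNMA1, -1.18 for IFITM1, -1.09 for KLK7, -1.08 for DDIT4 and -1.04 for ADAMTS6. For genes past the test as higher in KO1 and as lower in CBFB KO, the differences were 2.71 for UCHL1, 2.50 for EEF1A2, 2.49 for PCSK1N and 2.10 for DSC3. For those past the test as lower in KO1 and as higher in CBFB KO, the differences were -2.55 for APOE, -2.41 for PTN, -2.37 for VIM, -1.83 for C3 and -1.30 for IFITM3. The gene targeted in CBFB KO passed there and not in KO1, with a difference of 4.76 for CBFB.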

How the results depend on the processing

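The count of 809 called genes (551 higher and 258 lower) was 6481 (3224 and 3257) without a fold-change threshold, 2289 (1486 and 803) at a fold change of at least 1.5, 155 (102 and 53) at 4-fold and 344 (261 and 83) for means of at least 100. These follow from the stricter or looser limits. Under an adjusted p under 0.01, adjustment over every listed gene, means of at least 10, centring and removal of the trend on transcript length and GC content, the 3 counts stayed within 1.5-fold, and so did the 1470 genes that differ from CBFB KO under centring and means of at least 100. Of the list medians, 15 others moved by at least 0.1 on the log2 scale with the trend removed (for the respiratory chain from -0.35 to -0.19) and 15 for means of at least 100, and 4 reversed. For mesenchymal genes the median was -0.34 and became 0.16 for means of at least 100, for NRF2 and glutathione genes it was -0.12 and became 0.017 with the trend removed, and for replication-dependent histones it was -0.12 and became 0.11 with the trend removed and 0.32 for means of at least 100. The causes were not tested. Of the fold changes of named genes, 417 kept their side of the threshold with centring and 4 newly passed it, and with the trend removed 389 kept it, 15 newly passed and 17 no longer passed. No direction of a named gene reversed. No paired analysis was possible because the tables hold no value per library, and leaving out single libraries was not run for the same reason. The depth behind a value is given only by its mean and SE.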

Other observations

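Of the genes that passed the test in both tables with opposite signs and a difference that passed, 37 were higher and 46 lower in RUNX1 KO1, and 15 of the latter lie on chromosome 5, which holds 4.71% of the genes tested in both. They were looked at after their values were seen. At low means the apolipoprotein APOE (-1.31 ± 0.31, mean 9.55, against 1.24 ± 0.29 in CBFB KO) and the growth factor pleiotrophin (PTN, -1.20 ± 0.31, mean 6.40, against 1.21 ± 0.29) fell in KO1 and rose in CBFB KO. The desmosomal cadherin DSC3 (0.46 ± 0.11 against -1.65 ± 0.18) and the ubiquitin hydrolase UCHL1 (0.74 ± 0.13 against -1.97 ± 0.23) rose in KO1 and fell in CBFB KO. In RUNX1 KO2, which shares its WT libraries with KO1, DSC3 was at 0.05 ± 0.25 and UCHL1 at 1.16 ± 0.31.

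Among transcripts that were called and lie outside the gene lists, 634 in all, the guanine deaminase GDA changed by -3.25 ± 0.30 (implied 42.5 in WT and 4.48 in KO1) and the secreted VSTM2L by -3.50 ± 0.23 (implied 120.2 in WT and 10.6 in KO1), both singled out after their values were seen, and the neuronal pentraxin NPTX1 was at -2.33 ± 0.24 in KO1 and 0.13 ± 0.25, not past the test, in CBFB KO.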
